A study of Mus musculus with 24 samples.

Results

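Among the 21671 genes measured by RNA-Seq in splenic B and non-B cells of the mouse, 33 mark macrophages, monocytes and dendritic cells and are described here. The genes were chosen by name, from textbook markers of red pulp macrophages, marginal zone macrophages, monocytes and dendritic cell subsets, by a rule that holds no measured value but was set with earlier results of these data known. All 33 were present in every sample, and all 33 passed the filter on low values (an RPKM above 1 in at least 1 Trp53+/+ sample) in each of the fits described here.

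Macrophages of the splenic red pulp engulf aged erythrocytes and return their iron to the blood, under the transcription factor Spic, while macrophages of the marginal zone take up blood-borne particles through scavenger receptors such as Marco. Monocytes are recruited and patrol through the chemokine receptors Ccr2 and Cx3cr1. Dendritic cells divide into a cross-presenting subset that depends on Batf3 and carries Xcr1 and Clec9a, a further conventional subset, and plasmacytoid cells marked by Siglech.

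The study asked how the response to ionizing radiation and its dependence on p53 differ between 2 fractions of the spleen. Spleens came from C57/Bl6 mice of 8 weeks of age, either Trp53+/+ or Trp53-/-, left unstressed (mock) or taken 4 h after whole-body irradiation at 7 Gy (IR). Cells retained by magnetic beads against B220 (an isoform of CD45 found on B cells) made the B cell samples, and the cells that ran through the column made the non-B samples. Each fraction and treatment had 4 Trp53+/+ and 2 Trp53-/- samples, 24 in all. Trp53-/- animals lack p53 in every cell, so a difference between genotypes cannot be assigned to one cell type. Because the non-B cells were the flow-through of the suspensions from which the B cells were taken, the fractions came from the same spleens, but the labels do not say which B and non-B sample belong to 1 animal. The fit between the fractions treated them as independent, and the values with the replicate number as a block are given beside its results. p-values measure only the spread between these samples. In each fit all groups shared 1 estimate of the spread per gene. A standard error (SE) or p-value is therefore not the spread of the groups compared alone. For the Trp53-/- groups of 2 samples it rests largely on the Trp53+/+ samples. In such bulk samples, fewer cells of a type and less RNA per cell cannot be told apart.

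Values are RPKM, reads per kilobase of exon and per M (mega) reads mapped to exons, and are therefore set per gene length. Libraries held an estimated 4.75 to 11.0 M reads (median 8.76), at which a single read on a gene of 2 kb was worth an RPKM of 0.0455 to 0.105. In Trp53+/+ B cells depth differed by treatment, at 4.755 to 7.675 M reads in irradiated and 7.59 to 10.19 M in mock samples. The highest RPKM of any gene was 212 to 307 in those irradiated and 177 to 228 in those mock samples. The part of depth in the results was not tested. No 2 of the 24 libraries were identical. The p53 target Cdkn1a stood at 69.6 to 97.8 in the 8 irradiated Trp53+/+ samples and at most at 5.87 in the other 16, and Trp53 transcripts remained detectable in Trp53-/- samples at 21.6 to 41.8. All 8 B cell markers were higher in the B samples and all 9 T cell markers in the non-B samples of unstressed Trp53+/+ mice, but the summed RPKM of the B cell markers still reached 309 to 495 in non-B samples against 903 to 1053 in B samples. Olfactory and vomeronasal receptor genes, used here as a sign of stray reads, had an RPKM above 0 in over 20% of cases in 5 irradiated Trp53+/+ samples (B replicates 1 and 2, non-B replicates 1, 3 and 4), and the highest RPKM of any gene was only 157 to 307 per library. The part of these features in the results was not tested beyond the comparisons without those samples given below. Mock Trp53+/+ non-B replicates 1 and 2 also stood apart, with Klf1 and Elane, markers of erythroid and promyelocytic precursors, above the levels of replicates 3 and 4.

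Upstream sequence is shown for 4 members that mark the contrasts described below, Marco for its rise after IR in both fractions, C1qb and C1qc as neighbouring genes with nearly equal values, and Cx3cr1 as the member with the widest excess in non-B cells. The 250 bases before the RefSeq start of each gene were taken from the GRCm38.p6 tables, written 5′ to 3′ on the strand of the gene, and each matched 1 place in NCBIM37, the assembly of mm9 to which the authors aligned. Capitals mark a match to one of the motifs searched on both strands, PU.1 (GAGGAAGT or its reverse complement, here in C1qc) and a p53 half-site (here in Cx3cr1).
Marco, chr1:122401602-122401851 of NCBIM37, minus strand: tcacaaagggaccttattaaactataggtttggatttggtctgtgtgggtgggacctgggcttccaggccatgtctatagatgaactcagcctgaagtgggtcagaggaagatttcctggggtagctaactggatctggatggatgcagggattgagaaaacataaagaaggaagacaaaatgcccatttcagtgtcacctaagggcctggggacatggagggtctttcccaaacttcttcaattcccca
C1qb, chr4:136442116-136442365 of NCBIM37, minus strand: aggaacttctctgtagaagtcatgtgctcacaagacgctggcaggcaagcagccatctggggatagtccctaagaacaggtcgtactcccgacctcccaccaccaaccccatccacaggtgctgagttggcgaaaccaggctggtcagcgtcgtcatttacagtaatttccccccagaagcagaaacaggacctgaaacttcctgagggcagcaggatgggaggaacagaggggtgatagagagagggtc
C1qc, chr4:136448830-136449079 of NCBIM37, minus strand: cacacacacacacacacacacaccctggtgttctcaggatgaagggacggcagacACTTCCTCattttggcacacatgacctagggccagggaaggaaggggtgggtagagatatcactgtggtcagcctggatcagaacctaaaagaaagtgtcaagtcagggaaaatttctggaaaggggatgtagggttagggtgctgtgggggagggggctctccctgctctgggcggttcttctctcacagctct
Cx3cr1, chr9:119977415-119977664 of NCBIM37, minus strand: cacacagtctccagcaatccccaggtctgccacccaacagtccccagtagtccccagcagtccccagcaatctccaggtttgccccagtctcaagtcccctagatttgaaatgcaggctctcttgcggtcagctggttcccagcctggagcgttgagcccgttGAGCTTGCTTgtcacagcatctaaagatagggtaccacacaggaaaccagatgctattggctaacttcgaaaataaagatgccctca

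Promoter entries were found for 25 of the 33 members, all but Csf1r, Emr1, Vcam1, Hmox1, Slc40a1, Msr1, Siglec1 and C1qa. PU.1, the master factor of the myeloid lineage, had a match in 2 of the 25 (Fcgr4 and C1qc), against 2.44% of 27025 promoters. The p53 half-site matched in Mertk, Cx3cr1, Lyz2 and Cd68, against 7.18% of all promoters, the AP-1 motif TGANTCA in Zbtb46, Itgax and Cd68, against 6.87%, and the interferon regulatory factor motif (GAAA repeated after a gap of 2 bases) in Fcgr4 alone, against 3.04%. Marco and C1qb held none of the 4. These letters are descriptions of a short window and not sites of binding. In NCBIM37 C1qb, C1qc and C1qa lie in this order on chromosome 4 with gaps of 3616 and 2851 bases, Itgam and Itgax lie 1386 bases apart on chromosome 7, and Fcgr4 and Fcgr3 21407 bases apart on chromosome 1. Fcgr1, Fcgr3 and Fcgr4 are related receptors whose reads the counting could have split.

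In unstressed Trp53+/+ spleens 25 of the 33 genes differed between the fractions. Of the 33, 12 were called higher in non-B cells and 13 higher in B cells, with a median log2 difference of -0.14 over the members and 0.00 over all genes. Over all 14598 genes tested, 17.2% were called higher in non-B and 7.38% higher in B cells, so the members' shares lay above both. A call here means an adjusted p (Benjamini-Hochberg) under 0.05 by limma on log2(RPKM + 0.5) together with an absolute log2 difference above 0.58, which is the threshold the study used. Log2 differences are on that scale throughout, each with its SE after the ± sign, and between the fractions they are given as non-B minus B.

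Genes of the red pulp macrophage were higher in the B220-bound fraction. Spic, the factor that sets the identity of these cells, had RPKM values of 56.6, 49.4, 68.3 and 49.9 in B replicates 1 to 4 and 15.9, 27.6, 21.9 and 26.3 in non-B replicates 1 to 4. Every B sample lay above every non-B sample, with a log2 difference of -1.29 ± 0.16, adjusted p = 6.3e-06. Vcam1, an adhesion molecule of these macrophages, read 74.3, 82.7, 99.6 and 69.6 in B and 25.1, 42.4, 33.1 and 39.9 in non-B samples, again without overlap (-1.22 ± 0.19, adjusted p = 5.6e-05). Hmox1, the enzyme that opens heme, was at 98.7, 90.7, 133 and 107 against 47.5, 50.4, 63.8 and 63.3 (-0.92 ± 0.15, adjusted p = 9.7e-05). The fourth gene of the group, the iron exporter Slc40a1, did not reach the fold threshold (-0.49 ± 0.15, adjusted p = 0.014), although its 4 B values of 44.4, 43.6, 68.8 and 51.2 all exceeded the non-B values of 40.5, 38.8, 32.03 and 34.7. Emr1, which encodes F4/80 and marks the same macrophages, was higher in B cells as well, at 43.3, 44.1, 51.1 and 33.8 against 27.8, 28.7, 17.5 and 22.95 (-0.83 ± 0.19, adjusted p = 0.0023), with no overlap.

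Receptors for dying cells and the C1q chains went the same way. Mertk and Axl, tyrosine kinases that bind bridging proteins on apoptotic cells, had means of 29.5 ± 4.17 and 49.1 ± 5.11 (SD, n = 4) in B cells, against 11.1 ± 4.63 and 22.2 ± 4.96 outside that fraction. For both genes all 4 B samples were above all 4 non-B samples (-1.45 ± 0.28, adjusted p = 0.00046 for Mertk, -1.15 ± 0.16, adjusted p = 2.6e-05 for Axl). Timd4, a phosphatidylserine receptor of resident macrophages, was at 10.9, 9.76, 11.1 and 12.8 in B samples and only 0.831, 1.46, 2.31 and 2.37 in non-B samples (-2.44 ± 0.22, adjusted p = 2.7e-07). C1qa, C1qb and C1qc, the chains of the first complement component that macrophages secrete, were among the most abundant members, with means of 102 ± 13.7, 102 ± 16.2 and 110.2 ± 15.7 (SD, n = 4) in B cells. In non-B cells they stood at 45.6 ± 8.995, 49.5 ± 10.7 and 49.5 ± 9.51, and the log2 differences of the 3 chains, -1.16, -1.06 and -1.16, lay within 1 SE of each other (SE 0.16 to 0.17).

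The scavenger receptors split. Marco, carried by marginal zone macrophages, showed the widest excess of B over non-B cells among the 33, at 17.1, 10.9, 10.5 and 11.02 against 1.18, 1.84, 1.83 and 1.89 (-2.55 ± 0.19, adjusted p = 3e-08). The hemoglobin receptor Cd163 (-1.06 ± 0.26, adjusted p = 0.0037) and the mannose receptor Mrc1 (-1.72 ± 0.30, adjusted p = 0.00023) were higher in B cells too, each without overlap between the samples. In contrast Msr1, a class A scavenger receptor, was barely expressed in B cells, at 1.44, 1.17, 1.54 and 1.30, and higher in non-B cells, at 10.01, 8.45, 7.17 and 4.03 (2.02 ± 0.27, adjusted p = 1.4e-05). Siglec1, the sialoadhesin of marginal metallophilic macrophages, was not called, at 9.92, 9.28, 10.3 and 10.8 against 6.26, 7.80, 6.45 and 8.25 (-0.47 ± 0.27, adjusted p = 0.18).

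Cx3cr1, Ccr2 and Itgam, which monocytes carry, were higher in the flow-through. Other surface markers did not all follow, Emr1 being higher in B cells and Cd68 not called. Csf1r and the Fc receptors were not called either. Cx3cr1, the receptor of patrolling monocytes, had values of 4.88, 3.63, 4.11 and 5.34 in B and 43.3, 44.7, 36.01 and 37.1 in non-B samples (3.04 ± 0.23, adjusted p = 4.9e-08). Ccr2, which guides inflammatory monocytes out of the marrow, read 12.98, 7.95, 10.7 and 8.97 and 73.4, 61.8, 53.4 and 48.7 (2.50 ± 0.17, adjusted p = 1.1e-08). Itgam, the CD11b integrin chain shared by monocytes and neutrophils, stood at 7.99, 6.29, 5.69 and 5.23 and 59.1, 54.8, 39.4 and 43.4 (2.87 ± 0.21, adjusted p = 3.1e-08). In these 3 genes the lowest non-B sample was several times the highest B sample. Lyz2, the lysozyme of myeloid cells, differed far less (0.60 ± 0.12, adjusted p = 0.00077) and was high in both fractions, at 70.4, 61.4, 76.3 and 64.4 in B and 104, 100.3, 109 and 100.3 in non-B samples. The highest RPKM of any gene was 177 to 228 in these B and 168 to 191 in these non-B libraries. Duplicated reads had been kept as 1 copy. The part of this in the differences of abundant members, such as Lyz2 and the C1q chains, was not tested. Summed neutrophil markers (11 genes, Ly6g not used here) moved the same way as Itgam and Lyz2, with 41.1 to 252 in B samples and 405 to 921 in non-B samples, and their part in these genes was not tested. NK cell markers (59.9 to 90.7 in B and 240 to 378 in non-B samples) and T cell markers (68.2 to 80.5 and 441 to 636) also moved this way. The part of NK and T cells in the values of Cx3cr1, Ccr2 and Itgam was not tested.

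Genes of conventional dendritic cells were likewise higher in non-B cells. Itgax, the CD11c integrin chain, had means of 12.9 ± 1.23 in B and 41.9 ± 2.18 in non-B cells (SD, n = 4; 1.66 ± 0.13, adjusted p = 5.3e-08). Flt3, the receptor for the dendritic growth factor, was at 3.29 ± 0.673 in B and 10.6 ± 1.11 in non-B cells (1.56 ± 0.18, adjusted p = 4e-06), and Zbtb46, a transcription factor of conventional dendritic cells, at 3.15 ± 0.605 and 9.20 ± 2.36 (1.39 ± 0.20, adjusted p = 3.7e-05). The 3 genes of the cross-presenting subset showed smaller differences, with 1.21 ± 0.18, adjusted p = 5.6e-05 for the dead-cell receptor Clec9a, 1.03 ± 0.17, adjusted p = 0.00011 for Batf3 and 0.68 ± 0.20, adjusted p = 0.011 for Xcr1. Cd209a, a lectin of the other conventional subset, was at 1.84, 0.741, 0.909 and 2.56 in B and 6.73, 8.45, 10.2 and 15.6 in non-B samples (2.45 ± 0.36, adjusted p = 3.7e-05). Siglech, the marker of plasmacytoid cells, which carry B220 themselves, was not called (-0.18 ± 0.32, adjusted p = 0.7), with values of 8.15, 6.05, 6.61 and 15.8 in B and 5.28, 6.76, 13.5 and 6.36 in non-B samples that overlapped widely. Of 8 markers of plasmacytoid cells, Siglech among them, 1 was called higher in non-B and 2 higher in B cells, and the summed list read 102 to 127 in B and 87.3 to 109 in non-B samples.

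**Figure D1:**
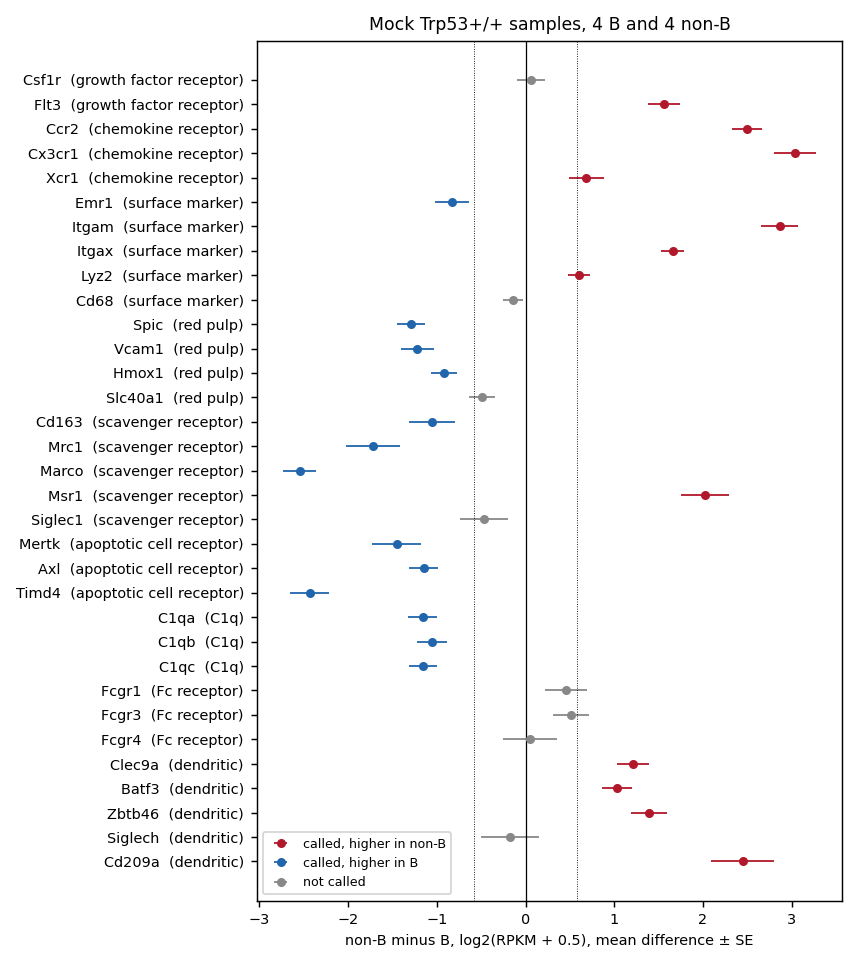
Difference between non-B and B samples of unstressed Trp53+/+ mice for the 33 members, ordered by role, on the x axis in log2(RPKM + 0.5) units. Points are differences of the means of 4 samples each, bars are the SE of limma, dotted lines mark the threshold of 0.58, and red pulp, apoptotic cell receptor and C1q genes lie to the left while chemokine receptor and dendritic genes except Siglech lie to the right.

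The other 6 members without a call were Csf1r, Cd68, Fcgr1, Fcgr3, Fcgr4 and Slc40a1, of which Slc40a1 was described above. Csf1r, the receptor for the growth factor on which most of these cells depend, was nearly equal in the fractions, at 52.3, 55.8, 60.5 and 48.9 and 58.9, 58.4, 51.2 and 57.9 (0.06 ± 0.16, adjusted p = 0.8). Cd68, a lysosomal protein of all macrophages, was also close (-0.14 ± 0.11, adjusted p = 0.34), and the activating Fc receptors Fcgr1, Fcgr3 and Fcgr4 differed by 0.45 ± 0.24, adjusted p = 0.14, 0.51 ± 0.20, adjusted p = 0.056 and 0.05 ± 0.31, adjusted p = 0.92. A lack of a call does not show equality, since these 6 genes had SEs of up to 0.31. The total of the 33 members was 1064 to 1406 RPKM in B and 932 to 1079 in non-B samples, ranges that overlapped.

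The calls of 23 of the 25 members held in all settings tried, and those of Xcr1 and Lyz2 did not. With the replicate number as a block within treatment, 25 members were called, all of them the same genes. Without mock non-B replicates 1 and 2, 25 members were called, 11 higher in non-B and 14 higher in B cells, 24 of them shared with the full set, and Xcr1 lost its call, as it did under quantile normalization and without B replicate 2 or non-B replicate 1. Lyz2 lost its call when single libraries were left out (B replicates 2 or 4, or non-B replicate 3). Unstressed Trp53-/- samples, which were not part of the fit, are given as a description without a test. Among the 13 members higher in B cells, 10 had both Trp53-/- B samples above both non-B samples, where 30.9% of all genes did, and the others were Emr1, Cd163 and Mertk. All 12 members higher in non-B cells had both Trp53-/- non-B samples above both B samples, where 34.3% of all genes did. Among the 8 members without a call, Fcgr3 alone separated, with non-B above B.

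**Figure D2:**
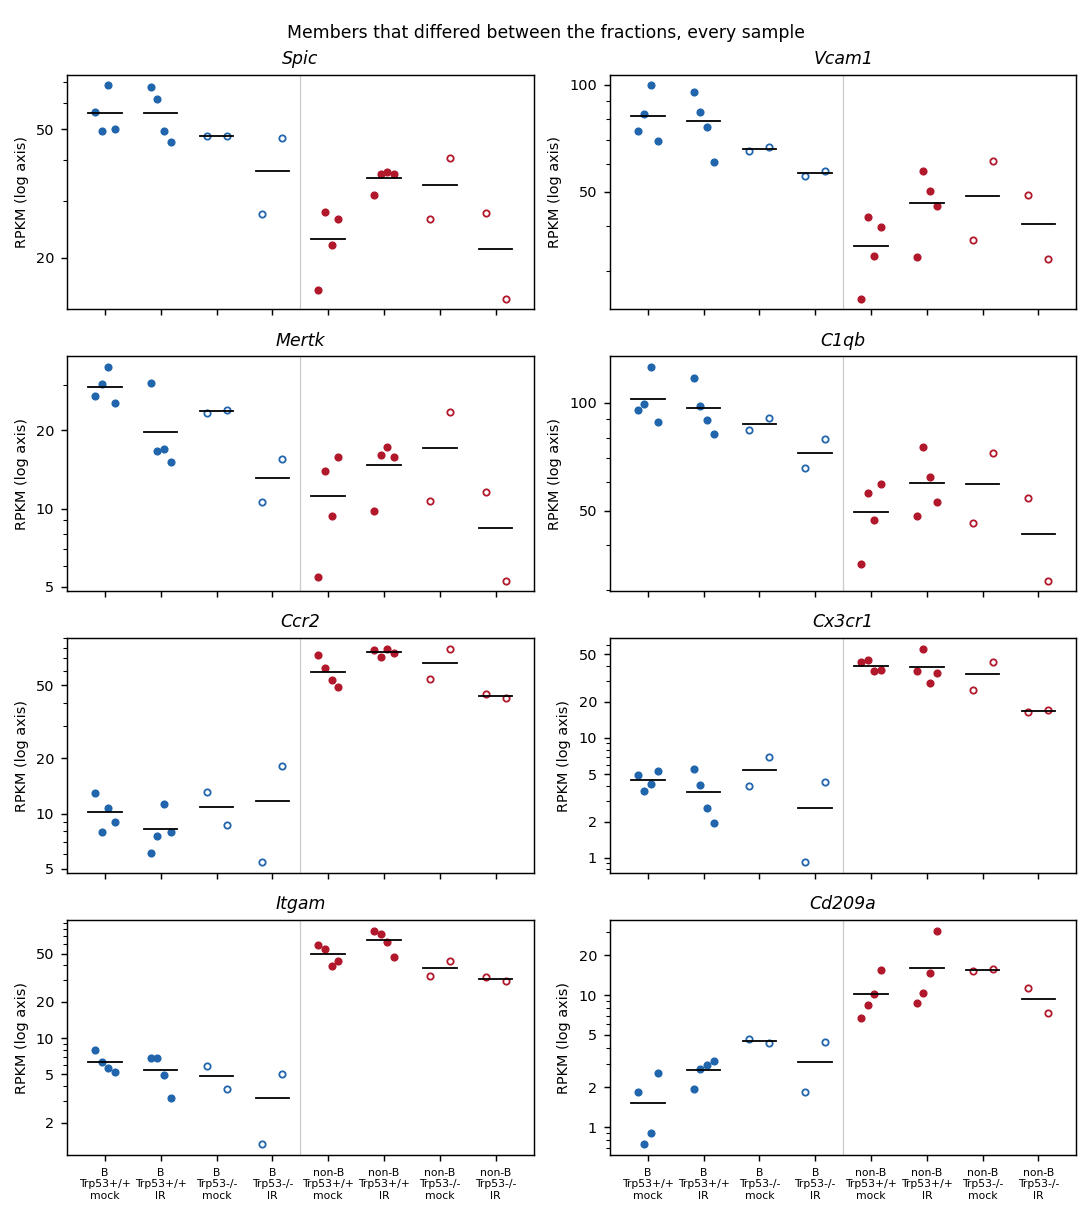
RPKM on a log axis of 8 members in all 24 samples, by fraction, genotype and treatment, with filled points for Trp53+/+ (n = 4), open points for Trp53-/- (n = 2) and lines at the group means. Spic, Vcam1, Mertk and C1qb were higher in unstressed Trp53+/+ B than non-B samples, and Ccr2, Cx3cr1, Itgam and Cd209a the reverse.

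Several lists for other cell types moved with the fractions. T cell markers summed to 68.2 to 80.5 in B and 441 to 636 in non-B samples, NK cell markers to 59.9 to 90.7 and 240 to 378, erythroid markers to 36.1 to 96.9 and 107 to 372, and megakaryocyte markers to 22.6 to 27.6 and 75.2 to 108. All markers tested of T cells (9), NK cells (7) and neutrophils (11) were called higher in non-B cells, as were 5 of 8 erythroid and 4 of 5 megakaryocyte markers. Stromal and endothelial markers leaned to B cells, at 75.0 to 79.7 against 40.8 to 59.6, almost wholly through Pecam1, while Col1a1, Col1a2 and Col3a1, which define fibroblasts, had means of at most 0.335 RPKM in either fraction. None of these lists holds the red pulp genes that were higher in B cells, and their part in that excess was not tested.

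Irradiation raised few of the members in Trp53+/+ non-B cells. Of the 33, 2 were called higher (Marco and Timd4) and none lower, where 5.74% of the 14018 genes tested rose, so that the share of members called was near that of all genes. The median log2 difference between IR and mock was 0.32 over the members and -0.03 over all genes, and 27 of the 33 had a difference above 0. At an unadjusted p under 0.05 there were 10 members. In the same comparison 4 of 8 erythroid markers fell, with sums of 107 to 372 in mock and 20.1 to 93.6 in irradiated samples, and 2 of 8 B cell markers fell, with sums of 309 to 495 in mock and 199 to 394 in irradiated samples. T cell markers, with 2 of 9 called lower, summed to 441 to 636 in mock and 341 to 444 in irradiated samples. The part of these lists in the values of the members was not tested.

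Marco changed most. Unstressed non-B samples read 1.18, 1.84, 1.83 and 1.89 and irradiated ones 15.9, 23.2, 21.6 and 19.3, from a mean of 1.69 ± 0.336 to 19.98 ± 3.17 (SD, n = 4). All irradiated samples exceeded all mock samples, with a log2 difference of 3.23 ± 0.33, adjusted p = 8e-05 that kept its call in each of 22 other settings and single-library omissions (2.96 to 3.5). Timd4 went from 0.831, 1.46, 2.31 and 2.37 to 4.01, 5.50, 5.88 and 5.50, again without overlap (1.40 ± 0.29, adjusted p = 0.0087). Its call was lost when the 3 irradiated non-B samples with many receptor genes were left out, which keeps replicate 2 alone and assumes that it varies like the other groups (log2 difference 1.49, adjusted p = 0.18 by limma), and with the receptor genes as a covariate (1.23, adjusted p = 0.20). Among the 31 members not called, the largest differences were those of Msr1 (0.91 ± 0.29, adjusted p = 0.051), Siglech (-0.73 ± 0.36, adjusted p = 0.17) and Spic (0.64 ± 0.21, adjusted p = 0.057). Mock non-B replicates 1 and 2 bear on this comparison, since without them 5 members rather than 2 were called higher.

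**Figure D3:**
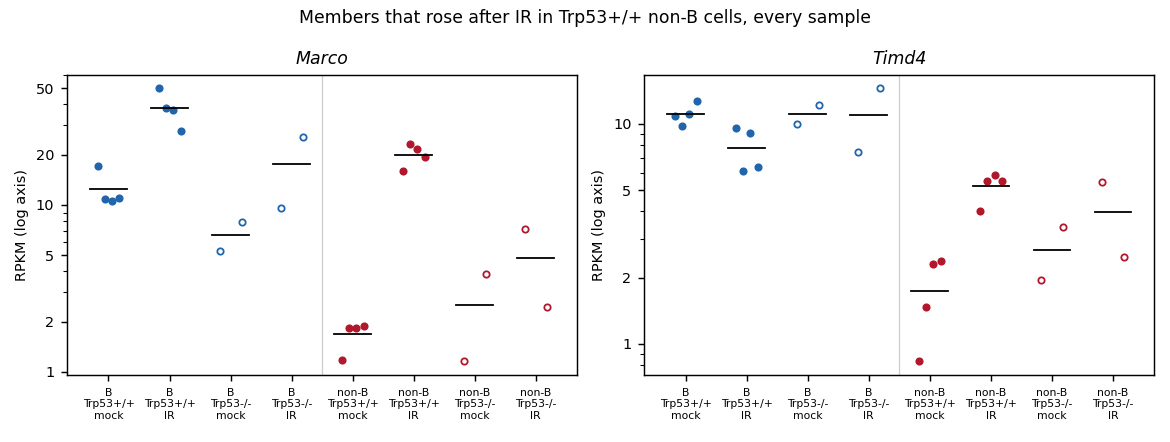
RPKM of Marco and Timd4 in all 24 samples on a log axis, by fraction, genotype and treatment, with filled points for Trp53+/+ (n = 4), open points for Trp53-/- (n = 2) and lines at the group means. In Trp53+/+ non-B cells both genes were higher in all 4 irradiated than in all 4 mock samples, whereas in Trp53+/+ B cells Marco was higher and Timd4 was not.

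In Trp53-/- non-B cells no member was called after IR by limma, with 8 at an unadjusted p under 0.05, where 0.442% of the 14018 genes tested were called in either direction. The median over the members was -0.53, against -0.02 over all genes, and 30 of the 33 differences were below 0. Within each pair of samples most members differed in the same direction. In the mock pair replicate 2 was above replicate 1 for 32 of the 33 members, where 48.2% of all genes were highest in replicate 2, and in the irradiated pair replicate 1 was above replicate 2 for 31 of the 33, where 58.9% of all genes were highest in replicate 1. Mertk illustrates this, at 10.7 and 23.4 in the mock and 11.6 and 5.29 in the irradiated pair, as does Axl, at 21.4 and 39.99 and 16.8 and 9.58. For Mertk the pairs overlapped and for Axl they did not, and in both genes mock replicate 2 was the highest and irradiated replicate 2 the lowest of the 4 samples. With the replicate number as a block, calls over all genes in this comparison went from 62 to 17, and none was a member.

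The difference in the IR response between Trp53+/+ and Trp53-/- non-B cells was called for 3 members, Marco, Slc40a1 and Ccr2, each higher in Trp53+/+ cells, where 3.72% of all genes had a call in this direction. The median of this difference was 0.79 over the members and -0.02 over all genes, and 14 members had an unadjusted p under 0.05. Other cell types moved in the same contrast. Of the megakaryocyte markers 2 of 5 were called higher (median 0.94), of the stromal and endothelial markers 1 of 4 (0.77) and of the NK cell markers 1 of 7 (0.40), while 1 of 8 erythroid markers was called lower (median -2.15) and 1 of 9 T cell markers (-0.37). In Trp53-/- non-B cells the megakaryocyte sums were 56.3 to 71.6 in mock and 25.9 to 34.8 in irradiated samples, and the NK cell sums 335 to 369 and 221 to 246. The part of these lists in the values of the members was not tested. Marco in Trp53-/- non-B cells read 1.16 and 3.84 unstressed and 7.20 and 2.46 after IR, pairs that overlapped, and the difference between genotypes was 2.40 ± 0.57, adjusted p = 0.03. Slc40a1 read 40.5, 38.8, 32.03 and 34.7 and then 44.6, 48.7, 52.4 and 40.1 in Trp53+/+ cells, and 30.5 and 44.7 and then 24.95 and 19.5 in Trp53-/- cells, so that its 2 irradiated Trp53-/- samples were the lowest of the 12 (1.08 ± 0.23, adjusted p = 0.02). Ccr2 read 73.4, 61.8, 53.4 and 48.7 and then 77.3, 71.5, 78.8 and 74.8 in Trp53+/+ cells. In Trp53-/- cells it read 54.4 and 78.3 and then 45.01 and 42.3 (0.94 ± 0.23, adjusted p = 0.032). Its irradiated samples did not overlap between the genotypes. For Slc40a1 and Ccr2 the response was 0.34 ± 0.13 and 0.36 ± 0.13 in Trp53+/+ cells. In Trp53-/- cells it was -0.73 ± 0.19 and -0.57 ± 0.19. On their own these responses were not called in either genotype. None of the 3 calls for a difference between genotypes held throughout. Leaving out Trp53-/- mock replicate 2 or irradiated replicate 2 left 0 of the 3, leaving out irradiated Trp53+/+ replicate 3 left 1, and leaving out the samples with many receptor genes left 0, at log2 differences of 2.62 for Marco, 1.15 for Slc40a1 and 0.86 for Ccr2 with 1 irradiated Trp53+/+ sample. With the replicate number as a block the call for Marco was lost (adjusted p = 0.055 by limma), while those for Slc40a1 and Ccr2 remained and Cd209a gained one (1.26, adjusted p = 0.039 by limma, against 0.22 without the block).

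Between the genotypes at baseline no member was called, as hardly any gene was. In mock non-B cells 0 of 33 were called by limma between Trp53-/- and Trp53+/+, with 1 at an unadjusted p under 0.05, where 0.0428% of all genes were called. In mock B cells 0 of 33 were called, with 5 at an unadjusted p under 0.05, where 0.0506% of all genes were called. In these B cells Cd209a read 4.68 and 4.36 in Trp53-/- and 1.84, 0.741, 0.909 and 2.56 in Trp53+/+ samples (1.42 ± 0.37, adjusted p = 0.52), and Siglech 18.1 and 19.9 against 8.15, 6.05, 6.61 and 15.8 (1.11 ± 0.32, adjusted p = 0.68). The genotypes did not overlap for either gene. With 2 Trp53-/- samples a group, differences of moderate size could have been missed.

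Irradiation of Trp53+/+ B samples was followed by lower levels of several macrophage genes and of the genes of cross-presenting dendritic cells. Other dendritic genes rose or were not called. Of the 33 members 2 were called higher (Marco and Zbtb46) and 10 lower, against 12.5% and 12.2% of the 13821 genes tested, so that the share of members that rose lay below that of all genes and the share that fell above it. The median was -0.41 over the members and 0.01 over all genes, and 28 of the 33 were below 0. The 10 that fell were Fcgr1, Siglec1, Emr1, Mrc1, Xcr1, Batf3, Clec9a, Fcgr3, Axl and Mertk.

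Fcgr1, the high-affinity IgG receptor, fell most, from 10.8, 9.97, 13.3 and 7.69 to 4.66, 3.36, 3.20 and 2.43 (-1.49 ± 0.19, adjusted p = 3.6e-05). Every irradiated sample lay below every mock sample. Its low-affinity relative Fcgr3 fell from 40.4, 40.5, 44.1 and 27.2 to 33.9, 24.6, 21.7 and 17.5, with overlap between irradiated replicate 1 and mock replicate 4 (-0.65 ± 0.19, adjusted p = 0.012). Among the macrophage surface genes, Siglec1 fell from 9.92, 9.28, 10.3 and 10.8 to 7.09, 4.95, 5.23 and 2.25 (-1.06 ± 0.28, adjusted p = 0.0064) and Emr1 from 43.3, 44.1, 51.1 and 33.8 to 28.2, 18.9, 23.4 and 19.1 (-0.93 ± 0.15, adjusted p = 0.0002). Neither gene overlapped between the treatments. Mrc1 went from 42.4, 46.7, 50.1 and 32.99 to 33.8, 19.1, 21.4 and 17.7 (-0.92 ± 0.22, adjusted p = 0.004), where irradiated replicate 1 lay just above mock replicate 4.

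The genes of cross-presenting dendritic cells fell together in Trp53+/+ B cells. In Trp53+/+ non-B cells none of them was called after IR (Xcr1 -0.28 ± 0.20, Batf3 0.19 ± 0.16, Clec9a 0.24 ± 0.17). Batf3 has 712 exonic bases and rests on few reads in B cells. Xcr1 dropped from 5.37, 2.88, 4.29 and 3.49 to 1.64, 1.92, 2.24 and 1.68 (-0.90 ± 0.22, adjusted p = 0.0039), and Batf3 from 5.81, 3.06, 4.39 and 3.41 to 2.65, 2.38, 1.59 and 1.90 (-0.81 ± 0.21, adjusted p = 0.0058), both without overlap. Clec9a dropped from 6.46, 4.41, 7.32 and 6.50 to 4.46, 4.05, 3.49 and 2.51 (-0.70 ± 0.20, adjusted p = 0.012), with irradiated replicate 1 above mock replicate 2. Of the 3 apoptotic cell receptors 2 were called lower. Axl went from 44.6, 47.3, 56.4 and 48.2 to 40.4, 29.7, 30.6 and 27.3, without overlap (-0.62 ± 0.18, adjusted p = 0.011), and Mertk showed a difference of -0.61 ± 0.19, adjusted p = 0.019. For Mertk the irradiated values of 30.4, 16.6, 16.9 and 15.1 included replicate 1 at the level of the mock samples, and its call was lost without mock replicate 3 or without any of the irradiated replicates 2 to 4, and without a filter on low values. Timd4, the third, had a difference of -0.51 ± 0.20, adjusted p = 0.045, short of the fold threshold. The calls of Axl and Fcgr3 were lost without mock replicate 3 or irradiated replicate 4, and that of Clec9a without irradiated replicate 4.

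By contrast Marco rose in B cells as it did in non-B cells, from 17.1, 10.9, 10.5 and 11.02 to 50.03, 37.9, 36.9 and 27.7, without overlap (1.58 ± 0.27, adjusted p = 0.00041). Zbtb46 rose from 3.70, 3.18, 3.43 and 2.30 to 4.88, 7.85, 5.39 and 4.88, also without overlap (0.77 ± 0.19, adjusted p = 0.0049). Its call was lost with the receptor genes as a covariate. Flt3 showed a difference of 0.56 ± 0.17, adjusted p = 0.014 that passed the adjusted p but not the fold threshold. Cd209a showed a difference of 0.75 ± 0.30, adjusted p = 0.052 and was not called. The C1q chains, Spic, Vcam1 and Hmox1, which were higher in this fraction than in non-B cells when unstressed, showed no call, with log2 differences from -0.22 for C1qa to 0.13 for Hmox1. Irradiated replicate 1 was the highest of its group for 26 of the 33 members, where 20.02% of all genes were highest in it, and without it 18 rather than 12 members were called. Erythroid markers fell in the same comparison (5 of 8 called lower, none higher), with sums of 36.1 to 96.9 in mock and 14.1 to 22.0 in irradiated samples, and the sums of the B cell markers were 903 to 1053 in mock and 797 to 890 in irradiated samples. Stromal and endothelial sums, of which 1 of 6 markers was called lower, did not overlap, at 75.0 to 79.7 in mock and 48.9 to 65.7 in irradiated samples. Of the plasmacytoid markers 4 of 8 were called lower and 1 higher, and of the T cell markers 2 of 9 lower. With the replicate number as a block Siglech gained a call (-0.61, adjusted p = 0.039 by limma, against 0.071 without it). The part of these changes in the levels of the members was not tested.

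**Figure D4:**
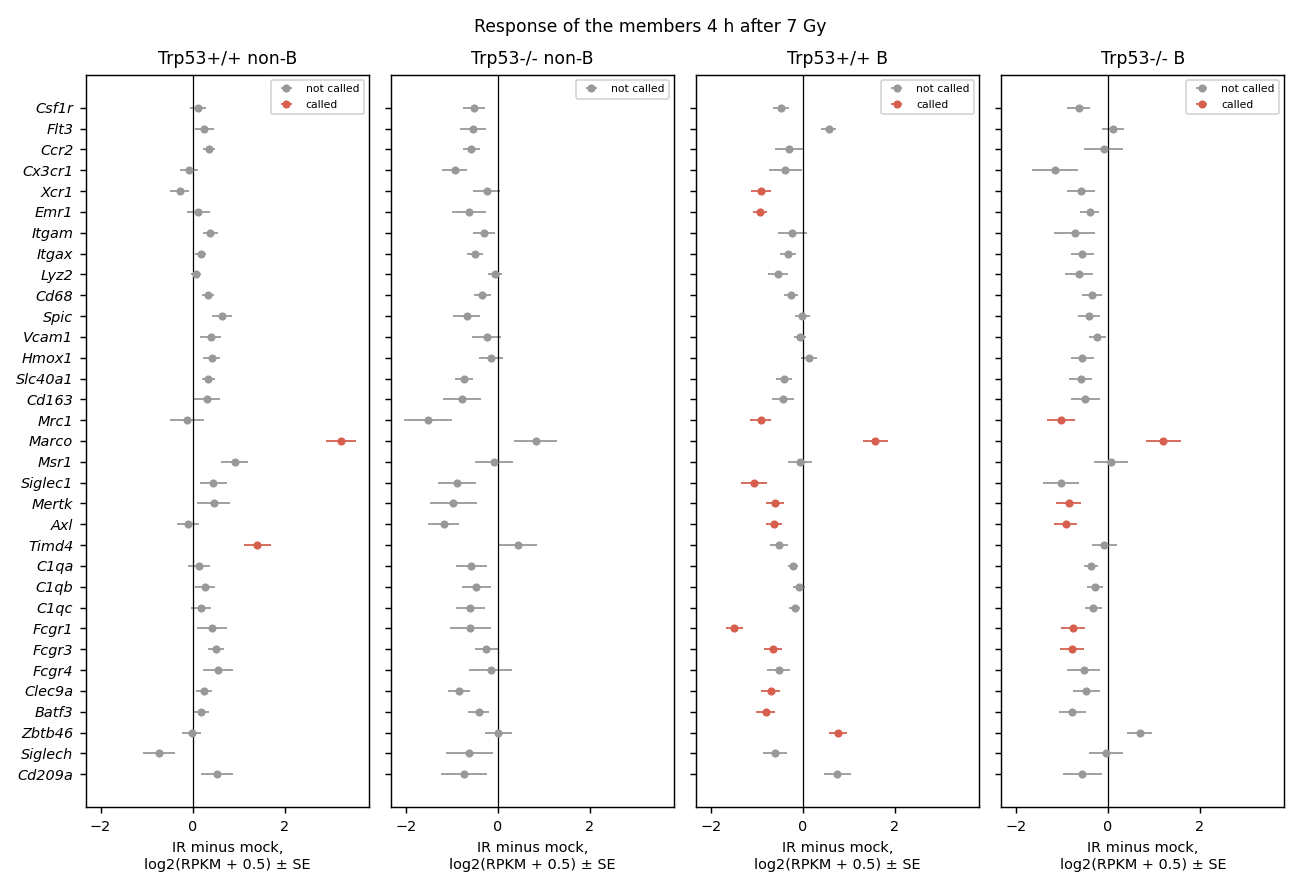
Log2 difference between IR and mock, on log2(RPKM + 0.5), for the 33 members in Trp53+/+ and Trp53-/- non-B and B cells, with points at the difference of the group means and bars for the SE of limma. Coloured points were called, 2 in Trp53+/+ non-B, 0 in Trp53-/- non-B, 12 in Trp53+/+ B and 6 in Trp53-/- B cells.

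In Trp53-/- B cells 1 member was called higher after IR and 5 lower, against 13.1% and 11.2% of all genes, shares not far from those of the members for the fall and above them for the rise. The median was -0.53 over the members and 0.02 over all genes. All 6 were also called in Trp53+/+ B cells, in the same direction. Marco read 5.28 and 7.94 in the mock and 9.53 and 25.5 in the irradiated pair, which did not overlap (1.21 ± 0.39, adjusted p = 0.025). The 5 lower members were Mrc1, from 34.2 and 31.2 to 11.4 and 22.03 (-1.02 ± 0.31, adjusted p = 0.02), Axl, from 40.3 and 41.9 to 15.2 and 30.6 (-0.91 ± 0.25, adjusted p = 0.011), Mertk (-0.85 ± 0.27, adjusted p = 0.025), Fcgr3 (-0.78 ± 0.27, adjusted p = 0.034) and Fcgr1 (-0.76 ± 0.27, adjusted p = 0.038). In each of the 5 both irradiated samples lay below both mock samples. The irradiated pair was uneven, however, replicate 2 being above replicate 1 for 32 of the 33 members, where 58.4% of all genes were highest in it. Without irradiated replicate 2, 17 members were called, without irradiated replicate 1 or mock replicate 2 only 1 and none of them lower, and without mock replicate 1 only 2. Stromal and endothelial sums went from 81.0 and 81.1 to 45.9 and 59.1 in the same comparison, and 2 of 8 B cell markers were called lower. Their part in the values of the members was not tested.

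No member had a called difference in the IR response between Trp53+/+ and Trp53-/- B cells by limma, with 3 at an unadjusted p under 0.05, where 12% of the 13821 genes were called. The largest differences were those of Cd209a (1.32 ± 0.52, adjusted p = 0.1), Cx3cr1 (0.77 ± 0.62, adjusted p = 0.43) and Fcgr1 (-0.73 ± 0.33, adjusted p = 0.14). For Marco the difference was 0.37 ± 0.47, adjusted p = 0.63, with responses of 1.58 in Trp53+/+ and 1.21 in Trp53-/- B cells. Omitting a single library brought up to 3 members past the threshold (without irradiated Trp53-/- replicate 2).

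Responses to IR differed between the fractions for 13 members in Trp53+/+ mice, all in the direction of a higher response in non-B than in B cells, where 8.9% of the 14598 genes tested had a call in this direction. The median difference was 0.63 over the members and -0.05 over all genes. Both fractions' responses enter this difference. Of other cell types, 3 of 8 erythroid markers were called in the opposite direction and 2 of 7 stromal and endothelial markers in the same one, and their part was not tested. Fcgr1 and Timd4 differed most, by 1.91 ± 0.34, adjusted p = 0.0006 and 1.91 ± 0.31, adjusted p = 0.00035. Fcgr1 fell in B cells and read 20.3, 16.9, 9.58 and 12.3 in mock and 25.2, 15.5, 22.7 and 15.3 in irradiated non-B samples, which overlapped, whereas Timd4 rose in non-B cells and read 10.9, 9.76, 11.1 and 12.8 in mock and 9.59, 6.12, 9.06 and 6.40 in irradiated B samples. Marco responded in both fractions, more so in non-B cells on the log2 scale (1.65 ± 0.26, adjusted p = 0.0003). The other 10 were Siglec1 (1.51 ± 0.38, adjusted p = 0.007), Fcgr3 (1.16 ± 0.29, adjusted p = 0.0071), Emr1 (1.06 ± 0.27, adjusted p = 0.0078), Batf3 (1.00 ± 0.24, adjusted p = 0.0054), Clec9a (0.94 ± 0.26, adjusted p = 0.013), Slc40a1, Ccr2, Spic, Lyz2 and Cd68, the last 5 with log2 differences of 0.59 to 0.75. The calls of Ccr2, Spic, Cd68 and Lyz2 were each lost in 4 to 16 of 26 other settings and single-library omissions, and that of Slc40a1 in 1. In contrast the calls of Marco, Timd4, Siglec1, Fcgr1, Fcgr3, Emr1, Batf3 and Clec9a were kept in all 26. With the replicate number as a block within treatment, 17 members were called, 12 of them shared. The block lost Spic (adjusted p = 0.069 by limma) and added Csf1r (0.59), Itgam (0.62), Msr1 (0.98) and Fcgr4 (1.06) as higher and Zbtb46 (-0.79) as lower in non-B cells, with adjusted p from 0.0045 for Itgam to 0.041 for Msr1. On the log2 scale the excess of B over non-B cells in Marco and Timd4 narrowed after IR. In RPKM the gap between the fractions widened for Marco, from means of 12.4 ± 3.17 and 1.69 ± 0.336 to 38.1 ± 9.18 and 19.98 ± 3.17 (SD, n = 4).

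Related genes outside the 33 were counted from lists of their functions, and the counts stand beside shares over all genes of 5.74% higher and 4.11% lower in Trp53+/+ non-B cells and 12.5% and 12.2% in Trp53+/+ B cells after IR. Several counts, such as 2 of 16 clearance genes higher in B cells, are near those shares. Of 17 tested genes of apoptotic cell clearance and scavenging, 3 were called higher in irradiated Trp53+/+ non-B cells and none lower, with Stab1, a scavenger receptor of macrophages and endothelium, at 1.51 ± 0.20, adjusted p = 0.00049 and Pros1, a bridging protein for Mertk and Axl, at 1.03 ± 0.24, adjusted p = 0.013. In Trp53+/+ B cells 2 of 16 were called higher and 3 lower, led by the integrin chain Itgb5 (-1.56 ± 0.17, adjusted p = 9.4e-06) and Mfge8, a bridging protein for phosphatidylserine (1.18 ± 0.22, adjusted p = 0.00077). Heme and iron genes showed 3 of 13 lower in Trp53+/+ non-B cells, the largest being the quinone reductase Nqo1 (-1.95 ± 0.44, adjusted p = 0.013), and 3 of 13 lower in Trp53+/+ B cells, where Blvrb, a biliverdin reductase, was first (-0.89 ± 0.15, adjusted p = 0.00029). Among 15 myeloid and dendritic lineage factors, 3 rose in Trp53+/+ non-B cells, with Nr1h3, a sterol-sensing receptor, at 0.97 ± 0.21, adjusted p = 0.01, and 3 rose and 3 fell in Trp53+/+ B cells, Nfil3 rising by 1.80 ± 0.25, adjusted p = 6.4e-05 and Cebpa, a factor of myeloid progenitors, changing by -1.08 ± 0.27, adjusted p = 0.0045. Csf1, the ligand of Csf1r, rose in Trp53+/+ B cells (2.30 ± 0.17, adjusted p = 3.8e-07) and differed there between the genotypes (1.72 ± 0.29, adjusted p = 0.002). Of 9 growth factors, chemokines and receptors tested in Trp53+/+ B cells, it was the only 1 called higher, and 1 was called lower. In Trp53+/+ non-B cells 1 of 10 was called higher and 1 lower. Between the unstressed fractions, 8 of 17 clearance genes were higher in non-B and 4 higher in B cells, 6 of 15 lineage factors were higher in non-B and 5 higher in B cells, 3 of 13 heme and iron genes were higher in non-B and none in B cells, and 7 of 11 growth factor and chemokine genes were higher in non-B and none in B cells. These stand beside 17.2% and 7.38% of all genes. In Trp53-/- non-B cells none of the genes of these 4 lists was called after IR, where 0.442% of all genes were. In Trp53-/- B cells 1 of 16 clearance genes was called higher and 5 lower, 2 of 13 heme and iron genes, 2 of 15 lineage factors and 3 of 9 growth factor and chemokine genes lower and none higher, against 13.1% and 11.2% of all genes.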

How the data were processed

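RNA-Seq was analysed in 24 samples, 12 of splenic B cells and 12 of non-B cells. Total RNA was depleted of ribosomal RNA, and libraries were made with the TruSeq v2 kit. The authors hid low-quality bases (below 20), mapped the reads onto mm9 with TopHat (TopHat2 2.0.8 in the submitters' processing notes), removed duplicated reads down to a single copy, counted with featureCounts 1.4.5 and deposited RPKM values. Whether strand was used in counting is not given in the sources used here. Counts were not used here, so the count test of the study was replaced by limma 3.58.1, run in R 4.3.3 with lmFit, contrasts.fit and a trended eBayes, on log2(RPKM + 0.5), fitted on all genes that exceeded an RPKM of 1 in any Trp53+/+ sample, in 1 fit of 12 samples for each cell type and 1 fit of the 16 Trp53+/+ samples, with Benjamini-Hochberg adjustment over all genes. It was tested on simulated data with independent noise of 1 size for all genes on the log2 scale. Shifts shared by the genes of a library were not simulated. Depth was estimated from the steps of low RPKM values, of which 57.0% to 72.8% lay within 0.1 of a whole read, with exon lengths found for 91.9% of the genes. Tables and plots used Python 3.11.15, numpy 2.4.6, pandas 2.3.3 and matplotlib 3.10.9.

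The members and gene lists were chosen by name with earlier results of these data known. Values per sample are given for members called in a comparison or marking a subset, and at most the 3 genes with the largest difference among those called are named from any other list. Alternatives were 2 other pseudocounts, 2 other filters, 2 scalings, the replicate number as a block, a receptor gene covariate, samples left out in sets and each sample left out in turn. Mock and irradiated Trp53+/+ non-B samples of the same number deviated together (correlations of 0.33, 0.15, 0.22 and 0.33 over genes), a reading from the data and not from the labels. Mock replicates 1 and 4 correlated best with the irradiated sample of their own number. Mock replicate 2 correlated best with irradiated replicate 1, and mock replicate 3 with irradiated replicate 4. The main fits hold no block, and the fit with the block is given where it changes a call.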

Additional observations from a re-analysis of the deposited data

Results flagged for a closer look

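In 132 sets of 4 Trp53+/+ samples (33 members in 4 groups), 8 held a sample whose gap to its nearest neighbour was large against the range of the set by Dixon's 95% limit, about as many as the 1 in 20 that chance gives. In mock B cells Marco was at 17.1 in replicate 1 against 10.5 to 11.0 in the others. In irradiated B cells replicate 1 was high for Cd68 (89.5 against 65.5 to 69.6) and Mertk (30.4 against 15.1 to 16.9), and replicate 3 was high for Msr1 (2.74 against 0.937 to 0.971). In mock non-B cells Csf1r was low in replicate 3 (51.2 against 57.9 to 58.9) and Marco low in replicate 1 (1.18 against 1.83 to 1.89). In irradiated non-B cells replicate 1 was low for Spic (31.2 against 36.4 to 36.9) and Axl (15.5 against 21.8 to 22.9).

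By limma's test of the difference, the IR response of 3 members in non-B cells differed between the genotypes. The log2 difference was 2.40 for Marco (adjusted p = 0.03), 1.08 for Slc40a1 (0.02) and 0.94 for Ccr2 (0.032). None of these 3 calls held in all settings and single-library omissions, and each Trp53-/- group held 2 samples. Between non-B and B cells of Trp53+/+ mice the IR response differed, by the same kind of test, by 1.91 for Timd4, 1.91 for Fcgr1, 1.65 for Marco, 1.51 for Siglec1, 1.16 for Fcgr3, 1.06 for Emr1, 1.00 for Batf3, 0.94 for Clec9a, 0.75 for Slc40a1, 0.66 for Ccr2, 0.64 for Spic, 0.61 for Lyz2 and 0.59 for Cd68, with adjusted p from 0.0003 for Marco to 0.045 for Ccr2.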

How the results depend on the processing

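The 61 differences of called members were recomputed under 592 combinations with another setting, of which 561 kept direction and call, 31 lost the call and 0 reversed, and under 884 omissions of 1 library, of which 810 kept both, 74 lost the call and 0 reversed. For IR in Trp53+/+ non-B cells, where 2 members were called, quantile normalization gave 4, the receptor gene covariate 1, leaving out the irradiated samples with over 20% receptor genes 1, and leaving out mock non-B replicates 1 and 2 gave 5. For the genotype difference in non-B cells (3 called), no filter gave 1, quantile normalization 6, the receptor covariate 1, which was not among the 3, and the omission of the samples with many receptor genes 0. For IR in Trp53-/- B cells (6 called), no filter gave 1, quantile normalization 10, the receptor covariate 11 and that omission 10. The cause was not tested.

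With 1 library left out, the number of members called ranged from 2 to 3 for IR in Trp53+/+ non-B cells, from 0 to 4 for the genotype difference in non-B cells (1 without irradiated Trp53+/+ replicate 3, 0 without Trp53-/- mock replicate 2 or irradiated replicate 2), from 9 to 18 for IR in Trp53+/+ B cells, from 1 to 17 for IR in Trp53-/- B cells (2, 1, 1 and 17 without mock replicates 1 and 2 and irradiated replicates 1 and 2), from 0 to 3 for the genotype difference in B cells (1 without Trp53+/+ mock replicate 4, 3 without irradiated Trp53-/- replicate 2), from 23 to 26 between the fractions and from 9 to 19 for the difference of the responses between them. The remaining 3 comparisons stayed at 0.

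The replicate block gave 2, 3, 13, 6, 25 and 17 members for IR in Trp53+/+ non-B cells, the genotype difference there, IR in Trp53+/+ B cells, IR in Trp53-/- B cells, the fractions, and the difference of the responses between them. It lost the calls of Marco in the genotype difference in non-B cells and of Spic in the last comparison, and gained 1 call in the genotype difference in non-B cells, 1 for IR in Trp53+/+ B cells and 5 in the last comparison. Mock and irradiated B samples of the same number correlated at 0.01 to 0.09. B and non-B samples come from the same spleens, but whether the numbers match the animals is not given, and same-numbered samples correlated at -0.10 to 0.35, not every sample best with its own number. Low members on short transcripts, such as Batf3 (712 exonic bases) and Cd209a (1484) in B cells, rest on few reads, and 2 samples a group limit every Trp53-/- value.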
